A study of Mus musculus with 4 samples.

Results

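Voltage-gated ion channels are membrane proteins that open and close with the voltage across the membrane and carry the currents by which excitable cells fire and release transmitter. Sodium channels (Nav) carry the upstroke of the action potential, potassium channels (Kv) end it, and calcium channels (Cav) couple it to secretion and to gene activity. Each has pore-forming subunits and auxiliary subunits that set its traffic and gating. Glia and neural progenitors rely mainly on potassium leak and inward rectifier currents, and many of the other channels come up as neurons mature.

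The genes described here are the protein-coding genes of GENCODE release M21 with symbols that start with Kcn and a letter, Scn and a digit, or Cacn. They numbered 134 of 21951 protein-coding genes: 14 sodium channel genes, 26 calcium channel genes and 94 potassium channel genes. The rule used the symbol alone, and it also takes genes whose products have no voltage sensor. Among these are the 15 inward rectifiers (Kcnj), the 14 two-pore-domain (K2P) leak channels (Kcnk) and the tetramerisation-domain regulator Kcnrg, which left 104 other members. The latter still hold the SK channels (Kcnn), which open with calcium and not with voltage, and the TARPs, which serve AMPA receptors.

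Foxr2 binding had been mapped by CUT&RUN, in which an antibody tethers a nuclease to a protein on chromatin so that the DNA around it is released and sequenced. The antibody was against V5, a tag fused to Foxr2. The 2 Foxr2 p53LOF libraries came from a neurosphere line of a mouse brain tumor raised in C57BL/6J embryos, in which the ganglionic eminence had been electroporated in utero with V5-tagged FOXR2 under a CAG promoter and with a guide RNA against Trp53. The 2 V5 control libraries came from cells of another electroporation model, labelled H3.3G34R and of the same strain, without the tag. All cells were fixed with 0.1% formaldehyde for 1 minute. The groups thus differ in driver as well as in tag, FOXR2 came from a transgene, and the replicates are libraries whose separate cultures the labels do not give, so their spread may be technical.

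The Foxr2 p53LOF lists held 31909 and 38580 peaks and the control lists 308 and 124. Each peak has a fold, the fragments at its summit plus 1 over the library background plus 1. A reproducible site is a stretch shared by peaks of both Foxr2 p53LOF replicates that pass the peak filters in the methods of the study, which include a fold above 6 in each. The study's further intersection with open chromatin peaks (snATAC-seq) was not applied here. That fold takes 13 fragments in replicate 1 and 18 in replicate 2, so each fold below has a wide counting interval. There were 11947 such sites.

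Foxr2 sites at the starts of channel genes were few. Of the 134 members, 18 (13.4%, Wilson 95% interval 8.67% to 20.2%) had a reproducible site within 1 kb of a start of one of their own protein-coding transcripts, against 39.2% of all protein-coding genes. A further 18 (13.4%, against 4.45% of all genes) had a site away from every start, in the gene body or the 10 kb on either side, and none at an own start. This kind leaves out genes with an own-start site, which are more frequent among all genes, and channel genes are longer. Per Mb of gene body, sites away from every start were fewer at members (1.33 against 2.01 for all genes). In 11 members (8.21%, against 6.39%) every site lay at the start of a neighbouring gene and none at an own start. Deposited peaks without a reproducible site were present at 42 members (31.3%, against 19.3%). The other 45 (33.6%) had no peak in any of the 4 libraries, a share near the 30.7% of all genes.

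**Figure D1:**
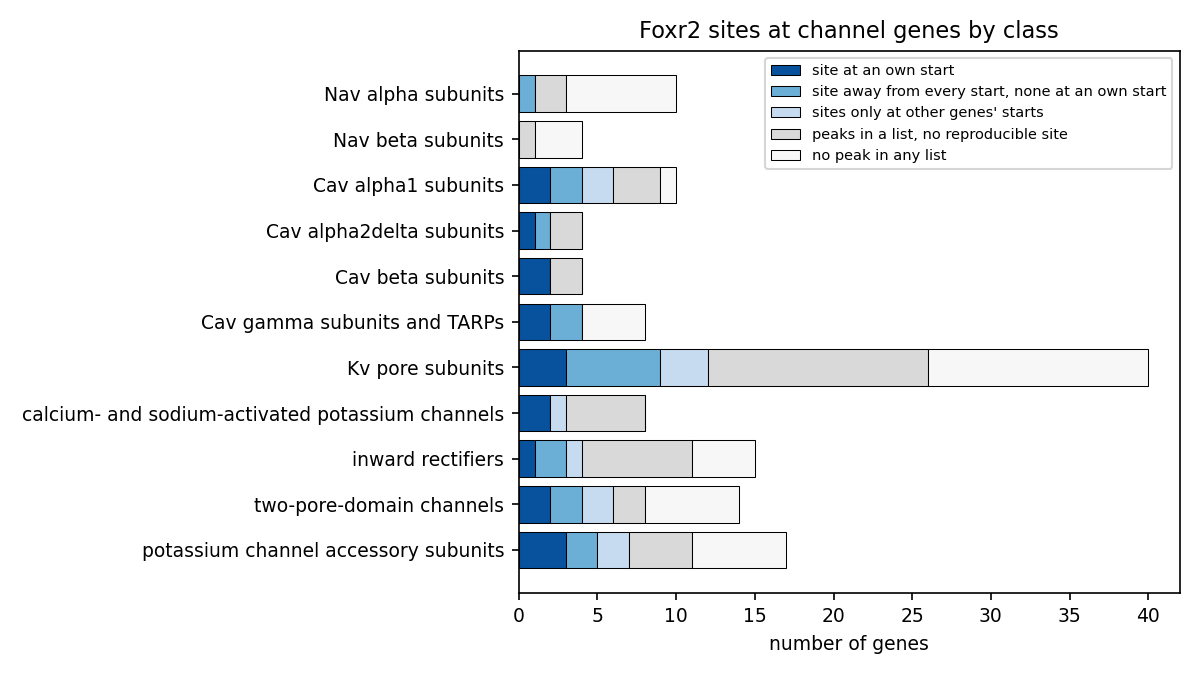
Number of channel genes (x axis) in each class (y axis), split by the nearest kind of Foxr2 site; each gene is counted once, in the first kind that applies. Sites at an own start are a minority in each class other than the Cav beta subunits (2 of 4), and the Nav alpha subunits hold 1 gene with a site among 10.

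The sequences upstream of 3 starts show the range. Cacng7 and Cacng2 encode regulators of AMPA receptors (TARPs) of the same class, and Scn1a encodes a sodium channel pore of neurons. The Cacng7 start lies in a Foxr2 site with folds of 14.6 and 13.8, measured at summits farther upstream than the stretch printed here (1103 bp from the start in replicate 1), while the Cacng2 and Scn1a regions had no peak in any library. The 250 bp upstream of the most upstream protein-coding start of each is given in the direction of the gene, with CpG dinucleotides in capitals (RefSeq genome GRCm38.p6, the same build as mm10). Cacng7 is chr7:3332705-3332954 on the plus strand, Cacng2 is chr15:78120029-78120278 on the minus strand and Scn1a is chr2:66440841-66441090 on the minus strand. Noncoding antisense transcripts overlap the last pair.
Cacng7: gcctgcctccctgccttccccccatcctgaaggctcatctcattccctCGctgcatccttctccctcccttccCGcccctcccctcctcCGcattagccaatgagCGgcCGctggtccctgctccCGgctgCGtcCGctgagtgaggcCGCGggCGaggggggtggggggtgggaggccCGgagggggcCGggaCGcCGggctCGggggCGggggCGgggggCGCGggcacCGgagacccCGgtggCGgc
Cacng2: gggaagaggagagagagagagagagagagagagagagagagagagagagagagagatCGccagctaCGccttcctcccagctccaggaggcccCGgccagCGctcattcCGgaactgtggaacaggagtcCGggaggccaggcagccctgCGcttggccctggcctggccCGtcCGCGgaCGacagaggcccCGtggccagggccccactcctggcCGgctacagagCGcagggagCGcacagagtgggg
Scn1a: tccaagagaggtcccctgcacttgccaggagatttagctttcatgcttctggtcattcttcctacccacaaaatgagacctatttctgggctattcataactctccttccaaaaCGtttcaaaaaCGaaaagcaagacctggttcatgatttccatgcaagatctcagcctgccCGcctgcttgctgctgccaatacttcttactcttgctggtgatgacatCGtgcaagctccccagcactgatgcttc
They hold 23, 15 and 4 CpG dinucleotides. The CpG-rich Cacng2 stretch was thus without a peak, as was the CpG-poor Scn1a stretch.

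The highest promoter sites belonged to auxiliary subunits and to a few pores. Kcnab2, a cytoplasmic beta subunit of Kv channels, had folds of 14.1 (counting interval 9.75 to 19.9, 31 fragments) in replicate 1 and 15.4 (11.4 to 20.5, 46 fragments) in replicate 2. This site (chr4:152477203-152478622) spans the start, with the replicate 1 summit 54 bp inside the gene in a UTR exon, and the start of Nphp4 is within 1 kb of it too. Cacng7 followed with 14.6 (10.1 to 20.4) and 13.8 (9.99 to 18.6) at chr7:3331728-3333439, with the replicate 1 summit 1103 bp upstream of the start. Neither differed between replicates beyond counting error.

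Among the pores, Cacna1c (Cav1.2, an L-type calcium channel) had folds of 12.4 and 14.8 at chr6:119107229-119109557. Its replicate 1 summit lies in an intron, 573 bp upstream of an internal start. Kcnq5, a Kv7 subunit of the M-current that restrains repetitive firing, had 10.2 and 13.5 at chr1:21960072-21961979, with the replicate 1 summit in an intron, 460 bp downstream of a start. Kcnn1, a small-conductance calcium-activated (SK) channel, had 11.5 and 18.7 at chr8:70864028-70866531. Its intervals, 7.59 to 16.7 and 14.2 to 24.2, still overlap. Its replicate 1 summit lies 2813 bp upstream of the start, and the site reaches the 1 kb window with its edge only.

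Cacng4, a TARP that glial progenitors also express, had folds of 10.6 and 11.8 at chr11:107792077-107795559, with the replicate 1 summit in an intron 1088 bp downstream of the start. The calcium sensor Kcnip3 (KChIP3, also known as the transcription factor DREAM) had 11.9 and 9.53 at chr2:127521120-127522708, and the K2P channel Kcnk10 (TREK-2) had 11.5 and 9.53 at chr12:98573142-98575587. Replicate 2 was higher at Cacng4 and lower at the other two, and all intervals overlap.

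Weaker sites lay at the starts of Kcnab3, Cacnb1, Kcnj2 and Cacna1h. Kcnab3, another Kv beta subunit, had 8.39 and 10.8 at chr11:69322888-69326592, a stretch that also covers the starts of Cntrob and Trappc1. Its replicate 1 summit lies 2687 bp upstream of the Kcnab3 start, outside the 1 kb window, so these folds were not measured at that start. Cacnb1, the beta subunit of the skeletal muscle calcium channel, had 7.95 and 10.8 at chr11:98021857-98023546. Kcnj2 (Kir2.1, a strong inward rectifier) had the same folds of 7.95 and 10.8 at chr11:111064847-111066708, with the replicate 1 summit 18 bp inside its first exon. Cacna1h (Cav3.2, a T-type channel) had 7.95 and 9.20 at chr17:25432684-25434784. In replicate 1 the lower bound of these last 3 was 4.82, under the minimum fold of 6.

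The other promoter sites were at Kcna6 (10.2 and 7.88), Kcnk5 (6.63 and 8.87), Cacna2d3 (8.84 and 6.24), Cacnb3 (6.19 and 7.23) and Kcnn2 (6.63 and 7.23, with the replicate 1 summit 1336 bp upstream of the nearest start) among others. Over all 19 promoter sites, replicate 1 folds ranged from 6.19 to 14.6 (median 8.84) and replicate 2 folds from 6.24 to 18.7 (median 9.53), with replicate 2 higher at 14. The intervals of the replicates overlapped at 19 of 19. The median of the lower fold was 7.95, against 9.72 over the 7807 sites near any protein-coding start, and 13 of the 19 lay under that median.

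**Figure D2:**
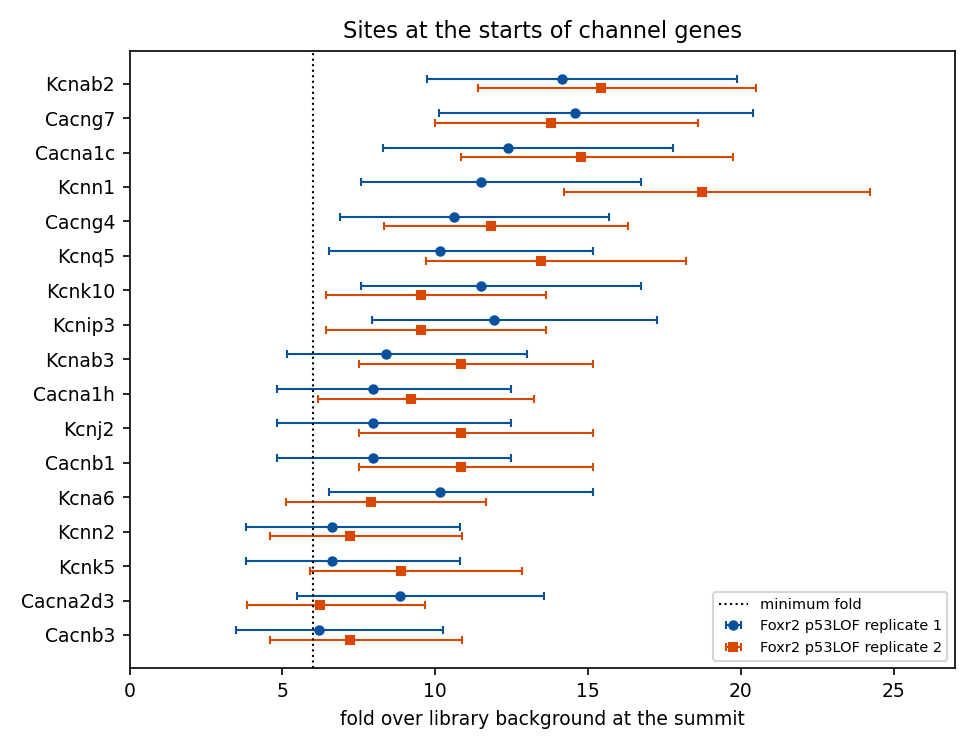
Fold over library background at the summit (x axis) for 17 of the 19 sites at the starts of channel genes (y axis), in Foxr2 p53LOF replicate 1 (circles) and replicate 2 (squares). Bars are exact Poisson 95% intervals of the fragment counts, and the dotted line is the minimum fold of 6; at the weakest sites the bars cross it in both replicates.

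Some starts had peaks that were too weak for the filters. Before any filter, 48 members (35.8%, against 53.2% of all protein-coding genes) had a peak at an own start in replicate 1 and 47 (35.1%, against 54.2%) in replicate 2, with median highest folds of 5.52 and 5.91. Peaks of both replicates overlapped at 38 members (28.4%), against 50.9% of all genes. No deposited peak lay at an own start in either replicate for 77 members (57.5%, against 43.9% of all genes). Neither control library had a peak at a start of any member.

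**Figure D3:**
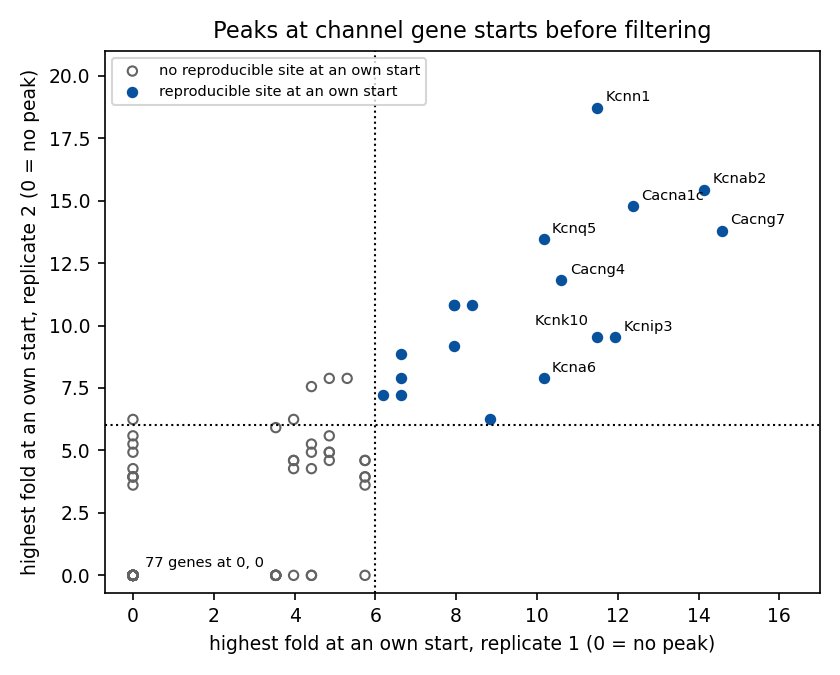
Highest fold of a deposited peak at an own start in replicate 1 (x axis) and replicate 2 (y axis) for each of the 134 channel genes, with 0 where there is no peak; dotted lines mark the fold of 6. Filled points are the 18 genes with a reproducible site at a start, 77 genes sit at the origin, and the open points are genes with a deposited peak at a start and no reproducible site there.

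Over the whole gene region, the body with 10 kb on either side, replicate 1 had peaks at 81 members (60.4%, against 66.1% of all protein-coding genes) and replicate 2 at 85 (63.4%, against 66.9%). Both control replicates had peaks at 0 members, against 0.524% and 0.260% of all genes. The Foxr2 p53LOF mean was 83 ± 2.83 members (SD, n = 2) and the control mean 0, and an exact two-sided permutation test over the 4 libraries gave p = 0.33, the smallest that 2 against 2 allows. Overlapping peaks of both Foxr2 p53LOF replicates, before any filter, were present at 72 members (53.7%, against 62.6% of all genes). A reproducible site lay in the region of 47 members (35.1%), against 50.0% of all genes. When sites at the start of another gene and at no own start were set aside, 36 members (26.9%) kept a site, against 43.6% of all genes.

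Gene length was taken into account, since channel genes are long (median 42.5 kb against 17.4 kb) and a long gene has more room for a site. All protein-coding genes were put in 10 groups by region length, with about equal numbers of genes, and the share with a site in each group was summed over the members. By this, 72.7 members would have a site in the region, and 47 had one (a ratio of 0.647). For promoter sites the figures were 56.9 and 18 (0.316). For sites at an own start or away from every start of another gene they were 65.6 and 36. Length made the difference larger, since without length groups the ratios were 0.701 and 0.343.

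**Figure D4:**
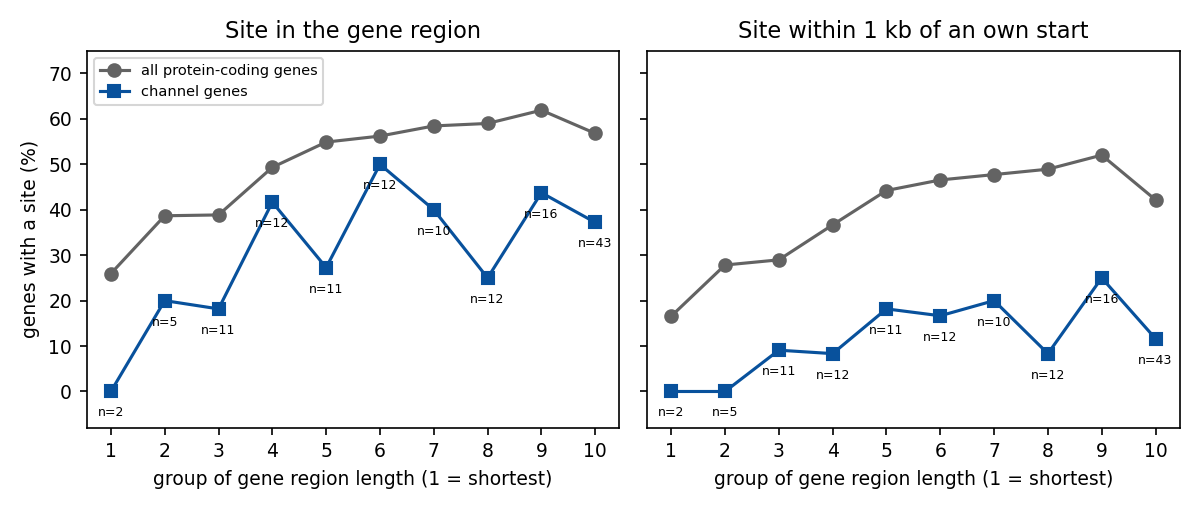
Share of genes with a reproducible site in the gene region (left) and at an own start (right), in percent, for 10 groups of gene region length (x axis, 1 is shortest); circles are all protein-coding genes and squares the channel genes, with their number in each group. The squares lie under the circles in all 10 groups of both panels.

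The longest group held 43 members, of which 16 (37.2%) had a region site and 5 (11.6%) a promoter site, against 56.8% and 42.2% of all genes of that group. Counted per gene body, members of 200 kb or more (26 genes, 11.3 Mb) had 7 sites away from every start, or 0.617 per Mb, against 1.73 per Mb over the 998 protein-coding genes of that length. Members of any length had 22 such sites in 16.5 Mb (1.33 per Mb), against 2.01 per Mb for all genes. Per 100 kb of gene region, sites away from the gene's own starts numbered 0.271 for members and 0.525 for all genes. Of these, 0.125 and 0.301 lay at another gene's start and 0.146 and 0.224 away from every start.

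CpG content around the start was described too, since promoter sites were more frequent at CpG-rich starts. The CpG observed/expected ratio in the 500 bp on either side of the most upstream start had a median of 0.492 for members and 0.561 for all genes. Above a ratio of 0.6, 10 of 55 members (18.2%, Wilson 95% interval 10.2% to 30.3%) had a promoter site, against 68.2% of 10224 genes. Above 0.8 it was 3 of 22 members (13.6%) and 76.5% of all genes, and under 0.3 it was 2 of 38 (5.26%) and 5.77%. The site may lie at another start of the gene than the most upstream, where CpG was measured. At Cacna1c (ratio 0.292) it is centred 88025 bp from that start. With groups of CpG ratio in place of length, 51.3 members would have a promoter site (a ratio of 0.351).

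**Figure D5:**
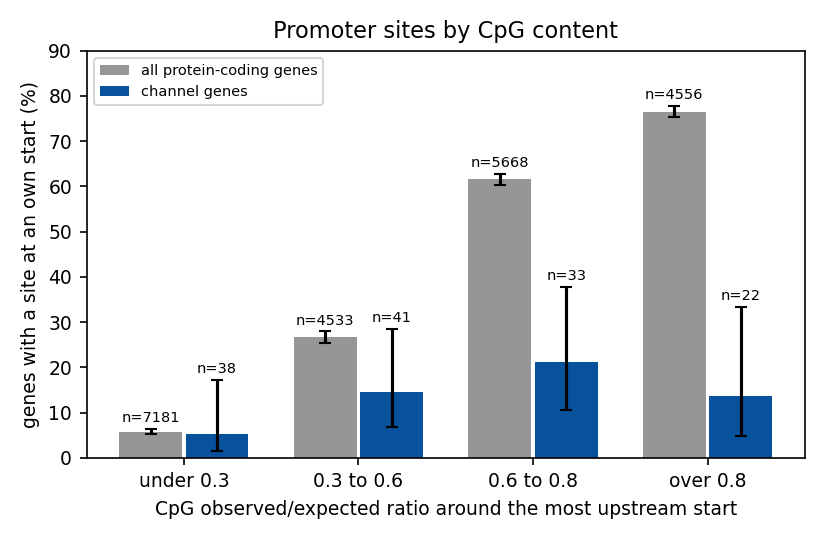
Share of genes with a reproducible site at an own start, in percent (y axis, with Wilson 95% intervals), by CpG observed/expected ratio around the most upstream start (x axis), for all protein-coding genes (grey) and channel genes (blue), with the number of genes above each bar. The grey bars climb from 5.77% to 76.5% while the blue bars lie between 5.26% and 21.2%.

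Sodium channel genes were the emptiest group. None of the 10 Nav alpha subunits, the pores of the action potential upstroke, and none of the 4 Nav beta subunits had a promoter site, where 6.19 would by length. The 6.19 does not take CpG content into account. Scn8a (Nav1.6, the channel of the axon initial segment and nodes) was the 1 gene of the 14 with any site. Its stronger site, chr15:100909050-100911132, lay in an intron with folds of 12.4 (8.30 to 17.8) and 13.5 (9.72 to 18.2). A weaker site followed downstream with 6.19 and 8.87. The 514 kb stretch from Scn1a over Scn9a to Scn7a on chromosome 2 had no peak in any of the 4 libraries. The longest Nav beta gene, Scn3b, had weak peaks at its start, with folds of 4.86 and 4.60.

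Calcium channel genes came closest to the background. A region site was present at 14 of 26, where 15.0 would by length, and a promoter site at 7, where 11.7 would. At a minimum fold of 10 a region site was present at 3 alpha1, 0 alpha2delta, 1 beta and 2 gamma or TARP genes. Over all members the region count fell from 47 to 22 at that fold. Among the 10 Cav alpha1 pores, 6 had a region site (5.85 by length) and 2, Cacna1c and Cacna1h, a promoter site (4.57). In Cacna1d (Cav1.3) and Cacna1s (the skeletal muscle pore) the sites lay at the starts of Dcp1a and Kif21b. Cacna1a and Cacna1b (Cav2.1 and Cav2.2, the channels of transmitter release) had sites in the body and none at a start, with folds of 8.39 and 8.87 in Cacna1a. Cacna1e, the longest alpha1 gene without a site, had peaks up to 5.30 in replicate 1 and 9.20 in replicate 2.

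Promoter sites were present at 1 of 4 alpha2delta genes (Cacna2d3, 1.69 by length) and 2 of 4 beta genes (Cacnb1 and Cacnb3, 1.75 by length). They were also present at 2 of 8 gamma and TARP genes (Cacng4 and Cacng7, 3.70 by length). Cacna2d1, which encodes the target of gabapentin, had a peak of 5.74 in replicate 1 and of 3.94 in replicate 2 and no site. Cacnb2, the main beta subunit of heart, had 1 peak of 6.19 in replicate 1 and 0 in replicate 2. With 4 to 10 genes a class, these counts are a description of single genes, and no class was tested against another.

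Potassium channel genes had a region site at 32 of 94 (49.8 by length) and a promoter site at 11 (39.0 by length). Among the 40 Kv pores, 12 had a region site (21.2) and 3 a promoter site (16.6), Kcnq5 and Kcna6 among them. Without Foxr2 p53LOF replicate 1 the Kv promoter count was 5. At a minimum fold of 10 the Kv region count was 6, and that of all members 22. Peaks were absent from all libraries at 14 of the 40 Kv genes, a share near the 30.7% of all genes. Kcnd2, the longest Kv gene without a site, carries the fast A-type current of dendrites and had peaks up to 4.42 and 6.24. Of the 8 calcium- and sodium-activated channels, 2 (Kcnn1 and Kcnn2) had a promoter site (3.61 by length). Kcnma1, the BK channel and the longest of this class without a site at 725061 bp, had 3 and 2 peaks with folds up to 4.86 and 5.59.

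The channels without a voltage sensor had few promoter sites too. A promoter site lay at 1 of 15 inward rectifiers (6.29 by length) and at 2 of 14 K2P channels (5.86 by length), and at 15 of the 104 members outside these groups and Kcnrg (44.4 by length). The count for inward rectifiers was 2 without Foxr2 p53LOF replicate 1. At a minimum fold of 10 the promoter counts were 0 for inward rectifiers, K2P channels and Cav alpha2delta and beta genes, 1 each for Kv pores, calcium- and sodium-activated channels, accessory subunits and Cav alpha1 pores, and 2 for gamma and TARP genes. A region site was then present at 1 K2P gene in place of 6. Counts fell with this cutoff over all members too, from 18 to 6 for promoter sites and from 47 to 22 for region sites. The class counts at this fold were not set against all genes. The longest without a site were Kcnj6 (GIRK2, a G-protein-gated rectifier), with peaks of 4.42 and 4.27, and Kcnk12, with 1 peak of 3.53 in replicate 1 and none in replicate 2. Accessory subunits of potassium channels had promoter sites at 3 of 17 (6.64 by length). Kcnip4, a KChIP and the longest member of all at 1135406 bp, had 1 peak in each replicate, of 6.19 and 4.27, and no site. Pore-forming subunits together had promoter sites at 10 of 97 (41.4 by length) and auxiliary subunits at 8 of 37 (15.5 by length).

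The strongest site that belonged to no start lay in Kcnj10. This gene encodes Kir4.1, the inward rectifier of astrocytes and oligodendrocytes. Its intronic site, chr1:172349371-172351247, lies 9094 bp downstream of the start and had folds of 19.0 (13.8 to 25.5, 42 fragments) and 29.6 (23.8 to 36.3, 89 fragments). Its lower fold was higher than that of 93.3% of all reproducible sites, and both folds exceeded those at every member's own start. The neighbouring Kcnj9 (GIRK3) had a site 15.0 and 22.0 fold over background beyond its 3' end, at chr1:172308147-172310669. The replicate 1 peak there runs on to within 1 kb of the start of Igsf8, which carries sites as well, as does the start of Pigm on the far side of Kcnj10.

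Other sites away from starts lay in introns of Kcnip1 (11.5 and 12.2), Kcnd3 (10.2 and 10.8), Kcnh6 (9.72 and 13.1) and Kcnq3 (7.95 and 12.5). Kcnip1 is a KChIP, Kcnd3 the A-type pore Kv4.3, Kcnh6 an ERG-type channel and Kcnq3 a subunit of the M-current channel. The Kcnh6 replicate 1 peak has its summit outside this stretch, in a further stretch of the gene that it also covers. There the replicate 2 peak has its summit beyond the gene, at the Dcaf7 start, so the Kcnh6 folds of the replicates come from different positions. The 22 gene body sites had lower folds from 6.19 to 19.0 with a median of 8.39, against 7.95 over all sites away from starts. By the replicate 1 summit, 19 of the 22 lay in introns, 2 in UTR exons and 1 in a noncoding exon.

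Several intronic sites hold letters of SOX, forkhead or ETS motifs, and they are printed to show where these lie. Capitals mark ACAATGG (the SOX core), TGTTTAC (forkhead) or CCGGAAG (the ELK type of ETS motif) on either strand. Each is written in the direction of the named channel gene. The stretches are chr1:172349993-172350116 (Kcnj10, plus strand), chr15:66239665-66239759 (Kcnq3, minus strand), chr15:100909129-100909321 (Scn8a, plus strand) and chr2:127508098-127508184 (Kcnip3, minus strand). The last sequence, chr6:119175623-119175709 (minus strand), comes from the site at the start of Dcp1b inside Cacna1c.
Kcnj10: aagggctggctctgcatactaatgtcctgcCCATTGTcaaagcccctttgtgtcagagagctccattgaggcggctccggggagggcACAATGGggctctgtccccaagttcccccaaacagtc
Kcnq3: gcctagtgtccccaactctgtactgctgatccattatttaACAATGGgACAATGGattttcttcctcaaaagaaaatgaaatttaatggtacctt
Scn8a: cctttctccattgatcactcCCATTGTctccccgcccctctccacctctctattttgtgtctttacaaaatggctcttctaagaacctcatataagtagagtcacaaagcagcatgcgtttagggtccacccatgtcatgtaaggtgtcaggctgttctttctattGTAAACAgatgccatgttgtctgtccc
Kcnip3: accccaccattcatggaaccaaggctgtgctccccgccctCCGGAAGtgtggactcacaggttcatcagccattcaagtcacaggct
Cacna1c near Dcp1b: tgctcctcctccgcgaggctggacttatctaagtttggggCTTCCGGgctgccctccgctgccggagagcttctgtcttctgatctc
In Kcnj10 a SOX core on each strand lies 221 and 278 bp from the replicate 1 summit. In Kcnq3 a pair of cores in the same direction lies 139 and 147 bp from the replicate 1 summit and 16 and 24 bp from the replicate 2 summit. The Scn8a letters lie 349 bp (SOX) and 203 bp (forkhead) from the replicate 1 summit, the Kcnip3 letters 184 bp and the Dcp1b letters 321 bp. Over the 28 member sites away from every start, the 200 bp at the centre held ACAATGG at 1 (3.57%, against 4.47% of 4136 such sites in all), TGTTTAC at 1 (against 3.14%) and CCGGAAG at 1 (against 1.72%). None of the motif letters printed above lies in the central window of its site, so these shares are not a background for them.

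The ETS, SOX and other letters were also counted at the promoter sites of members. In the 200 bp at the site centre, CCGGAAG was found in 0 of 19 member promoter sites and in 8.93% of the 7807 sites near any start. ACAGGAA, the ETS1 type, was in 1 of 19 (5.26%) and 3.36%, and ACAATGG in 1 of 19 and 1.46%. None of the 19 held TGTTTAC (1.29% of all), the RE1 parts TTCAGCACC and GGACAGCGC (0.243% and 0.525%), the NRF1 letters GCGCATGCG (1.23%) or the YY1 letters AAGATGGCG (1.75%). RE1 is the element of REST, a repressor of neuronal genes. In the central 400 bp, CCGGAAG was in 0 of 19 (16.5% of all) and ACAGGAA in 3 of 19 (15.8%, against 6.99%). With 19 sites, 1 site is 5.26%, so shares of this size cannot be told apart. A match is a run of letters, not a bound site.

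Upstream of the starts, whether or not a site was present, CCGGAAG was found in the 250 bp before 4 of 134 members (2.99%) and before 8.21% of all protein-coding genes. None of those 4 members had a promoter site, while 68.7% of all genes with these letters had one. The RE1 parts were found before 2 and 1 members (1.49% and 0.746%), against 0.287% and 0.356% of all genes. ACAGGAA was before 6.72% of members and 6.40% of all, ACAATGG before 2.24% and 2.39%, and TGTTTAC before 2.99% and 2.63%. NRF1 and YY1 letters were before none of the members, against 2.10% and 0.679% of all.

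Some of the sites in channel gene regions lay at the starts of neighbours. Of the 71 pairs of a member and a site in its region, 24 (33.8%) lay at the start of another gene and at no own start, against 26.9% of such pairs over all genes. Per 100 kb of region these were 0.125 sites for members and 0.301 for all genes. The 24 had lower folds from 6.63 to 27.8 and a median of 11.0. The highest, 27.8 and 31.2, is at the start of the ribosomal protein gene Rpl19, 4169 bp from the Cacnb1 start. The next include Mcrs1 beside Kcnh3 (16.3 and 25.0), Dcaf7 beside Kcnh6 (15.5 and 16.8) and Arrdc2 and Ccdc124 on either side of Kcnn1 (15.0 and 24.0, and 14.6 and 21.7). These genes are named only as the owners of the starts, and their names were chosen after the values were seen.

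By the place of expression known from the field, channels of neurons had a promoter site at 4 of 31 (13.3 by length), Kcnn2, Cacna1c and Cacna2d3 among them. Channels of muscle and heart had one at 2 of 14, Cacnb1 and Kcnj2 (5.85 by length), those of peripheral sensory neurons at 0 of 3 (1.36), and those of glia and progenitors at 1 of 5, Cacng4 (2.42). Region sites were present at 9, 4, 0 and 3 genes of these lists, against 17.4, 7.38, 1.76 and 2.98 by length. Partners of the channels that the symbol rule does not take (HCN and NALCN channels, ankyrins, FGF homologous factors, DPP proteins and REST among them) had promoter sites at 8 of 27 (11.9 by length) and region sites at 15 (15.2 by length).

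Set beside other gene groups, the 99 neurotransmitter receptor genes had promoter sites at 11 (11.1%, 42.5 by length) and the 50 proteasome subunit genes at 37 (74.0%, 19.3 by length). The ratio of the observed to the length-standardised count was 0.316 for channels, 0.259 for receptors and 1.92 for proteasome subunits. These are counts from the same pair of libraries, and the differences between the groups were not tested.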

How the data were processed

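The authors ran the GenPipes ChIP-seq pipeline: reads were trimmed with Trimmomatic 0.39, aligned to mm10 with BWA 0.7.17, cleared of duplicates with Picard 2.26.6, and peaks were called per library with MACS2 2.2.7.1. The deposited fold (signalValue) is a ratio to the library background. MACS2 also gave the deposited −log10 of p and q, each relative to its own library, and a deposited score that restates q on a −log10 scale. Read totals are not in the lists. Here, Foxr2 p53LOF peaks that overlapped a control peak by 10 bp or more, had a −log10 q or a fold of 6 or less, or were 10000 bp or longer were dropped. Sites were the stretches shared by both replicates (1 bp or more). Fragments at a summit were recovered from fold and p, with exact Poisson intervals for counting error only. Genes and starts came from GENCODE M21 and sequences from GRCm38.p6. No test over members was run. The site calls, the length standardisation and the Poisson intervals were tested on simulated data, and the other steps were not (Python 3.11.15, scipy 1.17.1, pysam 0.24.0). The members and lists were chosen with earlier results of these data known. Named genes are the 12 members with the highest promoter site, the 6 with the highest site away from every start, the longest member of each class without a site, and the listed channels with a promoter site; the rest were chosen after their values were seen. Groups of CpG or GC content and the count without sites at other genes' starts alone were added after seeing the data. A few members are counted but not reported by name here.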

Additional observations from a re-analysis of the deposited data

How the results depend on the processing

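The number of members with a promoter site was 17 to 21 with a window of 500 bp or 2 kb or with the starts of all transcripts, 13 with a minimum −log10 q of 10, 6 with a minimum fold of 10, 18 with no minimum on fold (the minimum −log10 q kept) and 38 with no filter. It was 18 to 23 with each replicate left out in turn. The number with a site in the gene region was 22 with a minimum fold of 10, 50 with no minimum on fold, 72 with no filter, 31 for the gene body alone and 82 with 50 kb on either side, and 47 to 59 with each replicate left out. The ratio to the length-standardised count stayed under 1 in all alternatives for which it was computed. These leave out the other promoter windows, the starts of all transcripts, the gene body alone and 50 kb on either side. The ratio ranged from 0.570 (minimum fold of 10) to 0.770 (no filter) for gene regions. For promoters it ranged from 0.222 (minimum fold of 10) to 0.497 (no filter), the value farthest from the main 0.316. With GC groups the promoter ratio was 0.280, and without inward rectifiers, K2P channels and Kcnrg it was 0.338. Sites away from the members' own starts fell from 0.271 to 0.109 per 100 kb at a minimum fold of 10. In the paired analysis, with the replicate number as a block, the permutation p for members with a deposited peak was 0.5, the smallest that 2 pairs allow. Divided by the median fold of their chromosome, the 12 highest promoter sites had lower folds of 6.92 to 14.6. A site too weak to pass the filters is undetected at this depth rather than absent.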
